A study of Saccharomyces cerevisiae with 6 samples.

Results

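Transcripts of 10 genes of the peroxiredoxin, thioredoxin and glutathione systems were followed in 6 libraries of the budding yeast Saccharomyces cerevisiae. The genes were given by name: SRX1, TSA1, AHP1, PRX1, TRX1, TRX2, TRR1, SOD1, GSH1 and GLR1. All 10 were among the 2850 genes of the tables, and the estimated counts of a gene's isoforms were added together. The list was drawn up with the comparison of ESI+ with naive cells already known, so the differences of these 10 genes are given as a description. Counts of these genes past a threshold stand only beside the share over all genes, and nothing is read from them. Both groups were the diploid laboratory strain BY4743 in rich glucose medium (YPD) at an optical density of about 0.5, with 3 biological replicates each. One group was naive. The other carried [ESI+], an inherited prion-like epigenetic state known for altered expression of genes near chromosome ends. The labels name no oxidant, drug or further allele for either group. RNA came from whole cultures, so a lower level in every cell and fewer cells with the transcript cannot be told apart. Values per library are given below in the order of replicates 1, 2 and 3.

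Peroxiredoxins are abundant enzymes that reduce hydrogen peroxide with a reactive cysteine and are then reduced by thioredoxin. Thioredoxin reductase returns thioredoxin to its reduced form with electrons from NADPH, and sulfiredoxin repairs peroxiredoxins whose cysteine has been over-oxidised. Glutathione, a small thiol peptide, runs beside this system as a second pool of reducing power. In yeast the transcription factor Yap1 is known to raise many of these genes when peroxide is added.

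The upstream sequences of SRX1, TRX2 and TRR1 are shown because they carry the Yap1 motif in genes whose values differ most in kind below: a gene near 0 in naive cells, an abundant gene with overlapping groups, and a gene with lower ESI+ values in CPM. Each holds the 300 bases before the start codon in the RefSeq R64 genome, on the strand of the gene, at chrXI:277981-278280 (plus strand), chrVII:913228-913527 (minus strand) and chrIV:1182999-1183298 (plus strand). Capitals mark TTACTAA or TGACTAA on either strand, so that TTAGTAA and TTAGTCA are marked too.
SRX1: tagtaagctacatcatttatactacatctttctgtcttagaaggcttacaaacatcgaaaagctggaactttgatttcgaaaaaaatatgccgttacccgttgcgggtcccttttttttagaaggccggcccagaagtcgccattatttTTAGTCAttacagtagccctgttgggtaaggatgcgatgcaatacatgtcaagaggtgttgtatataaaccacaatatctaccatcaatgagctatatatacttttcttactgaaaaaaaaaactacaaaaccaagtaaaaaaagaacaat
TRX2: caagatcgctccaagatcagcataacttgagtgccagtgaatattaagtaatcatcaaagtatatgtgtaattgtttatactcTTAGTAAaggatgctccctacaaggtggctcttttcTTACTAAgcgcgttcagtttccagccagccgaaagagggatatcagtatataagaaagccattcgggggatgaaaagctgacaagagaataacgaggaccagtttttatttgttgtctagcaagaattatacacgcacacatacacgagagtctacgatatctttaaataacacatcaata
TRR1: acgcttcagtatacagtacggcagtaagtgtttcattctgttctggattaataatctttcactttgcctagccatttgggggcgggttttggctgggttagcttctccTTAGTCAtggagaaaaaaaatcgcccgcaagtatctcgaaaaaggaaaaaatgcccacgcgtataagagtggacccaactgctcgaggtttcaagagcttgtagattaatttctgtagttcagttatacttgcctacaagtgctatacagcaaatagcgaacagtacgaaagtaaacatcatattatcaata
TRX2 held TTACTAA at 2 places, while SRX1 and TRR1 held TGACTAA once each, and SOD1 and GLR1 held TTACTAA once each. In all 5 of the 10 genes had at least 1 of these motifs in this window, against 11.2% of 6020 protein-coding genes. In 500 bases it was 7 of 10, with AHP1 and GSH1 added, against 17.0% of 6019 genes. There SRX1 also held TTACTAA, 301 to 295 bases before the start codon. The edge of the sequence shown cuts this match, so it is not marked. The stress element AGGGG, or CCCCT, lay in the 300 bases of TSA1, AHP1, PRX1 and SOD1, and 22.2% of all genes had it. These matches describe letters and say nothing of binding.

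TRX1 and TRX2 encode the cytosolic thioredoxins. Their active sites are shown because the paralogues could share fragments. The stretches are coding bases 61 to 120 of TRX1 (chrXII:231894-231953, minus strand) and 64 to 123 of TRX2 (chrVII:913105-913164, minus strand), and capitals mark bases that differ between them.
TRX1: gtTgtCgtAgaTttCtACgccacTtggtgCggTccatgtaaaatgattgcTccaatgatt
TRX2: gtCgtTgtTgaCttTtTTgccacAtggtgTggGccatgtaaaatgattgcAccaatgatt
Of these 60 bases 11 differed. Over the aligned coding sequences the identity was 73.7%, and the longest run shared without a difference was 17 bases. TSA1 and its paralogue TSA2 had 78.5% identity and a longest shared run of 14 bases. TRR1 and the mitochondrial reductase gene TRR2 aligned at 77.0% identity. No gene span of the 10 overlapped another annotated gene, although the reference spans hold no untranslated regions and the strand setting of the counting is not given in the sources used here.

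The libraries held 316485 to 5934050 estimated counts, the least in ESI+ replicate 3. ESI+ replicates 2 and 3 stood apart: Pearson's r of log2 CPM across genes, which are not independent replicates, was 0.592 for that pair. It was 0.926 to 0.952 for pairs of naive libraries, and 0.898 to 0.908 for ESI+ replicate 1 paired with each of them. A background level, taken as the 5th percentile of counts per kb over all genes, reached 299 counts per kb in ESI+ replicate 2, compared with 2.03 to 55.4 elsewhere. Counts were set against length in the 712 genes with the lowest summed counts in the naive libraries. Spearman's rho, a description across genes, reached 0.760 in ESI+ replicate 2, where the other 5 libraries gave -0.0064 to 0.398. This choice narrows the range of counts in naive libraries, so their values are less comparable with those of ESI+ libraries. Among these genes counts followed length closely only in ESI+ replicate 2, and the background level is a reference level elsewhere. In ESI+ replicate 2, 70.4% of all genes lay under 3 times this background, against 10.8% to 38.7% in the other libraries. URA3, which this strain lacks by design, had 255 and 333 normalised CPM (library-size-scaled counts with TMM factors) in naive replicate 3 and ESI+ replicate 3, against 17.8 to 32.3 elsewhere, which goes against the strain label. HIS3, partly deleted in this strain, reached 453 in ESI+ replicate 3, where the other 5 libraries had 32.6 to 66.4. Their part in the results was not tested. Of 10 haploid-specific and mating-type genes 4 were in the tables. The a-factor genes MFA1 and MFA2, silent in a/alpha diploids, had 0 to 5 counts in naive libraries. AGA2 had 14, 3 and 5 counts there. The haploid-specific gene STE4 had 143, 28 and 87 counts in naive libraries, at 2.31, 2.62 and 1.07 times the background level. In ESI+ replicate 2 MFA1, MFA2, the agglutinin gene AGA2 and STE4 had 86, 66, 96 and 739 counts, which were 1.02, 0.665, 0.670 and 1.69 times the background level. In ESI+ replicate 3 MFA1 had 6 counts and AGA2 37, at 10.5 and 38.1 times that level.

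Levels were compared between genes in TPM, which is scaled per transcript length. In naive cells SOD1, the copper-zinc superoxide dismutase that turns superoxide into peroxide, had the highest TPM, 2148 ± 452 (SD, n = 3). AHP1 followed with 2041 ± 608, TSA1 with 1891 ± 526, TRX2 with 1629 ± 590 and TRX1 with 1096 ± 208. The ranges of neighbours among these 5 overlapped. TRR1 (274 ± 100), PRX1 (254 ± 84.9) and GLR1 (161 ± 29.7) came next, where the ranges of TRR1 and PRX1 overlapped widely, and those of PRX1 (179 to 346) and GLR1 (132 to 191) at their edges. The lowest TRX1 value, 858, was above the highest TRR1 value, 386. GSH1 had 25.2 ± 8.78 and SRX1 1.43 ± 1.51, both apart from the genes above them. In ESI+ cells SOD1 was again first with 2607 ± 514 TPM and the same 5 genes led, but SRX1, at 103 ± 145, had a higher mean than GSH1, at 65.6 ± 61.6. The SDs of both were near or above their means. The 10 genes together held 0.380% to 0.554% of the counts in naive libraries and 0.365% to 0.624% in ESI+ libraries.

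**Figure D1:**
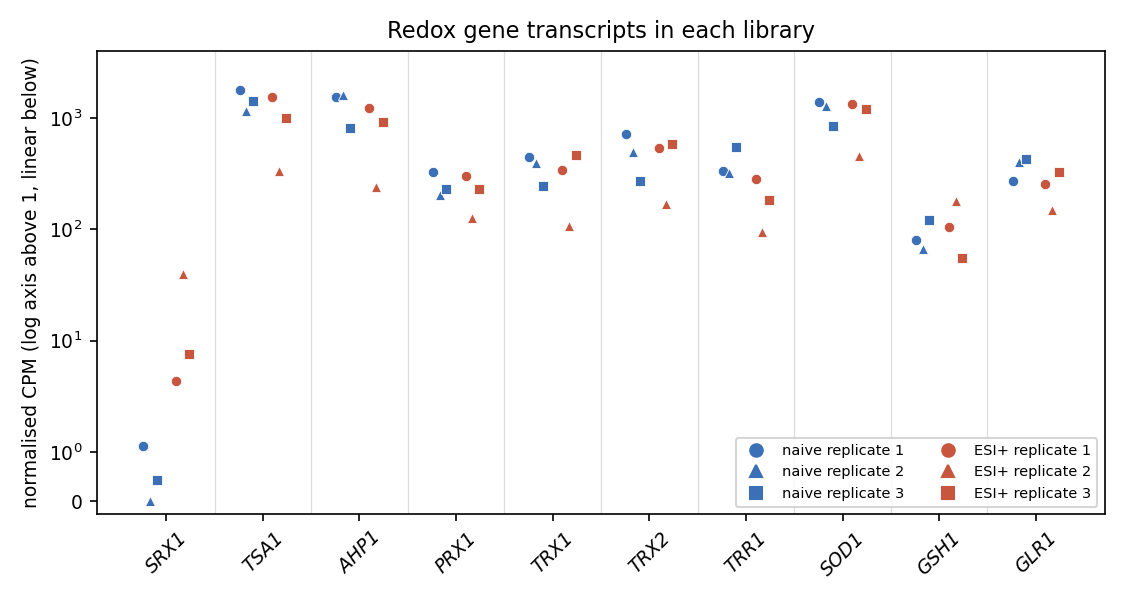
Normalised counts (CPM, TMM-scaled) of the 10 genes in the 6 libraries, on an axis that is logarithmic above 1 and linear below it; each point is 1 library, blue for naive and red for ESI+. SRX1 has all its ESI+ points above its naive points, TRR1 has all of them below, and ESI+ replicate 2 (triangle) is the lowest point of every gene except SRX1 and GSH1.

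The values of the peroxiredoxin genes TSA1, AHP1 and PRX1 overlapped between groups. Those of SRX1 and, in CPM, of TRR1 did not, where 29.8% of all genes had groups without overlap in CPM. SRX1 (YKL086W, chromosome XI, 278281 to 278664), the sulfiredoxin gene, had 4, 0 and 2 counts in naive libraries and 8, 300 and 3 in ESI+ libraries. These were 1.13, 0 and 0.44 normalised CPM in naive and 4.31, 39.7 and 7.51 in ESI+ libraries. All ESI+ values lay above all naive values, and ESI+ replicate 2 was far above the other 5 libraries. The exact 95% Poisson interval, which covers counting error only, was 1.86 to 8.49 CPM in ESI+ replicate 1, 35.3 to 44.5 in replicate 2 and 1.55 to 22.0 in replicate 3. It was 0.309 to 2.90 in naive replicate 1, and reached up to 5.01 in naive replicate 2, which had 0 counts. So the intervals of ESI+ replicates 1 and 3 overlapped those of naive libraries. The log2 fold change, ESI+ minus naive, was 4.72 (SE 1.21). Without ESI+ replicate 2 SRX1 had too few counts for the filter, and with the filter lifted the value was 2.90 (SE 1.29). Set against the background level per kb, its counts were 2.09 times the background in ESI+ replicate 2, 3.09 times in replicate 3, 0.508 times in replicate 1 and 0 to 0.198 times in naive libraries. The part of that level in the value was not tested.

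TSA1 (YML028W, chromosome XIII, 220138 to 220728), the main cytosolic peroxiredoxin and the known substrate of sulfiredoxin, had 1760, 1149 and 1426 normalised CPM in naive libraries. Its ESI+ values were 1540, 330 and 994. ESI+ replicate 1 lay inside the naive range, replicate 3 below it and replicate 2 far below it. The log2 fold change was -0.60 (SE 0.70), or -0.19 without ESI+ replicate 2. AHP1 (YLR109W, chromosome XII, 368781 to 369311), a thioredoxin peroxidase known to prefer alkyl hydroperoxides, had 1538, 1617 and 809 in naive and 1220, 241 and 914 in ESI+ libraries. Here replicates 1 and 3 of ESI+ were inside the naive range. Its log2 fold change was -0.74 (SE 0.70), or -0.31 without ESI+ replicate 2. PRX1 (YBL064C, chromosome II, 100371 to 101156), the mitochondrial peroxiredoxin, had 328, 201 and 231 in naive and 303, 126 and 230 in ESI+ libraries, a log2 fold change of -0.21 (SE 0.46). Its direction turned without ESI+ replicate 2, where the value was 0.075. The TPM of TSA1 was 6.92 to 8.16 times that of PRX1 in naive libraries, and 6.51, 3.27 and 5.44 times in the ESI+ libraries. This ratio does not depend on how libraries are scaled to each other and did not overlap between groups. The lowest ratio was in ESI+ replicate 2, where TSA1 counts were 11.5 times the background level and PRX1 counts 3.74 times. The part of the background in the ratio was not tested. The pair was chosen after its values were seen, and the difference was not tested. The share of gene pairs without overlap was not taken. The ratio of TSA1 to AHP1, by contrast, was 0.573 to 1.44 in naive and 0.945 to 1.14 in ESI+ libraries, which overlapped.

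The groups overlapped for both thioredoxin genes, and the reductase gene was the member with the lowest fold change. TRX1 (YLR043C, chromosome XII, 231702 to 232013) had 446, 391 and 246 normalised CPM in naive and 341, 108 and 466 in ESI+ libraries. TRX2 (YGR209C, chromosome VII, 912913 to 913227) had 712, 491 and 271 in naive and 531, 167 and 578 in ESI+ libraries. For both genes ESI+ replicate 2 was the lowest library and the other ESI+ values lay inside or, for TRX1 in replicate 3, just above the naive range. Their log2 fold changes were -0.25 (SE 0.53) and -0.21 (SE 0.59), and 0.16 and 0.18 without ESI+ replicate 2. The ratio of TRX2 to TRX1 in TPM was 1.24 to 1.80 in naive and 1.04 to 1.68 in ESI+ libraries, which overlapped. That of TRX2 to TRR1 was 2.77 to 9.13 and 7.89 to 12.0, which overlapped too.

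TRR1 (YDR353W, chromosome IV, 1183299 to 1184258), the cytosolic thioredoxin reductase that feeds electrons from NADPH to both thioredoxins, had 334, 319 and 550 normalised CPM in naive and 283, 94.6 and 183 in ESI+ libraries. On this scale all ESI+ values lay below all naive values, with ESI+ replicate 1 close to the naive minimum. In TPM the groups overlapped, with 246, 192 and 386 in naive and 227, 164 and 184 in ESI+ libraries. The log2 fold change was -1.10 (SE 0.50). It was -0.77 without ESI+ replicate 2, -0.75 without naive replicate 3, the highest naive library, and -0.52 with ESI+ replicate 1 as the lone ESI+ library. On the log2(TPM + 1) scale it was -0.47, where the median over all genes was 0.64.

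SOD1 (YJR104C, chromosome X, 622550 to 623014) had 1380, 1272 and 840 normalised CPM in naive and 1337, 452 and 1194 in ESI+ libraries. ESI+ replicates 1 and 3 were inside the naive range, and replicate 2 was below it. Its log2 fold change was -0.23 (SE 0.68), and 0.12 without ESI+ replicate 2. In the glutathione branch, GSH1 (YJL101C, chromosome X, 234320 to 236356) encodes gamma-glutamylcysteine synthetase, the first enzyme of glutathione synthesis. It had 80.5, 66.5 and 121 in naive and 106, 179 and 55.1 in ESI+ libraries, and its ESI+ values lay on both sides of the naive range. The log2 fold change of 0.36 (SE 0.49) turned to -0.13 without ESI+ replicate 2. GSH1 was the longest of the 10 genes, with isoforms of 2391 to 2465 bases, and its counts were 1.88 to 4.50 times the background level in all 6 libraries. GLR1 (YPL091W, chromosome XVI, 375502 to 376953), the glutathione reductase that returns oxidised glutathione to its reduced form, had 268, 402 and 425 in naive and 256, 147 and 326 in ESI+ libraries. Its groups overlapped, with a log2 fold change of -0.60 (SE 0.49), or -0.33 without ESI+ replicate 2.

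**Figure D2:**
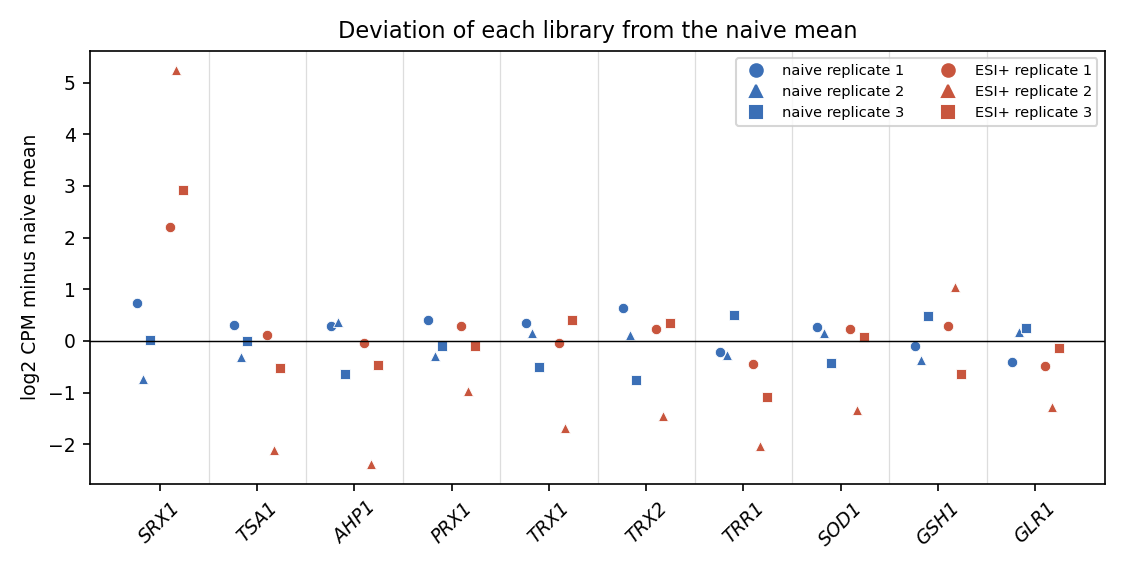
Log2 CPM of each library minus the mean of the 3 naive libraries, for the 10 genes; each point is 1 library. ESI+ replicate 2 lies below 0 for all genes but SRX1 and GSH1, whereas ESI+ replicate 1 stays within the naive range for all but SRX1, TRR1 and GLR1.

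Over the 10 genes the fold changes ran from -1.10 (TRR1) to 4.72 (SRX1), with 2 positive and 8 negative values and a median of -0.24, against a median of 0.072 over the 2844 genes tested. Without ESI+ replicate 2 there were 4 positive values among 9 genes and the median was -0.13, against -0.041 over all genes. All 10 genes passed the filter on low counts, SRX1 through its ESI+ libraries. By library, the median deviation from the naive mean was 0.17, -1.39 and -0.12 on the log2 scale in ESI+ replicates 1, 2 and 3. Over all genes it was -0.0067, 0.019 and -0.081. SOD1, AHP1, TSA1, TRX2 and TRX1 lay at percentiles 95.6 to 98.0 of all genes by naive TPM. The 100 genes with the most counts held 28.3% of the counts in ESI+ replicate 2, against 41.8% to 61.1% in the other libraries. The members were not compared with genes of like abundance, so these medians do not set them apart from other abundant genes. For 8 of the 10 genes ESI+ replicate 2 was the lowest of the 6 libraries. The share of all genes lowest there was not counted. The median of the members was 4.87 times the background in ESI+ replicate 2, against 31.3 to 128 times in the other libraries. Over all genes the median was also closest to background there, at 2.24 times, against 4.12 to 14.7 times in the other libraries. With ESI+ replicate 1 as the lone ESI+ library the 9 genes that could be fitted had values of -0.52 to 0.23.

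**Figure D3:**
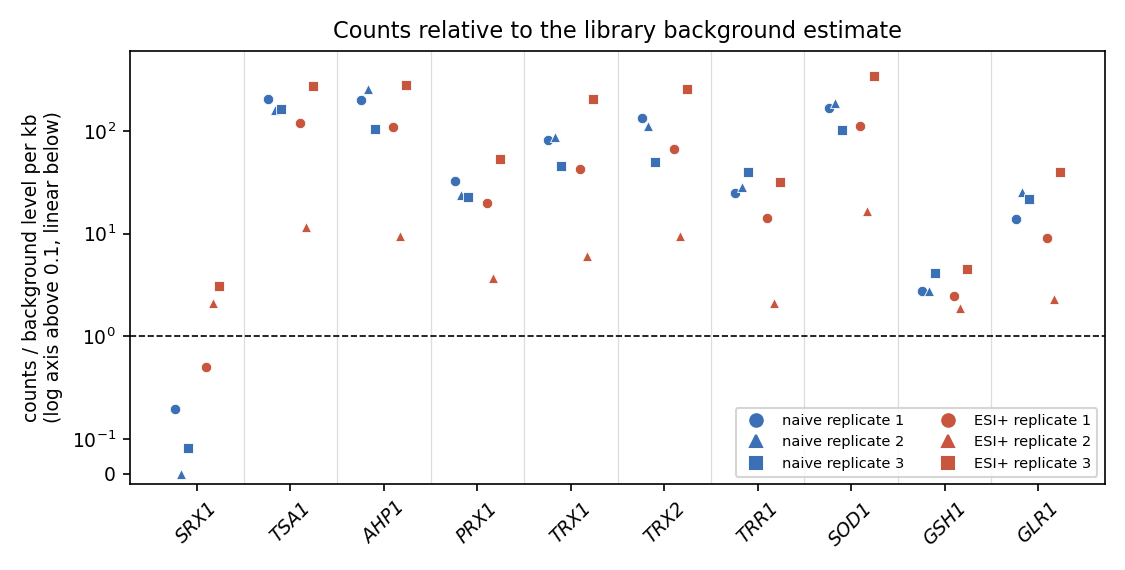
Counts of the 10 genes divided by the background level per kb estimated in each library, on an axis that is logarithmic above 0.1 and linear below it; the dashed line marks a ratio of 1. SRX1, TRR1, GSH1 and GLR1 lie under 3 in ESI+ replicate 2, and SRX1 lies under 1 in the naive libraries and ESI+ replicate 1.

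At an adjusted p under 0.05 (edgeR's quasi-likelihood test, Benjamini-Hochberg adjustment over all tested genes), 6.26% of all genes were called higher in ESI+ cells and 1.65% lower. SRX1, which passed the filter through its ESI+ libraries, was the 1 member called higher and none of the 10 was called lower. Nothing is read from that count. Whether SRX1 was called depended on the setting, and nothing is read from this either. It was not called without naive replicate 2 or naive replicate 3, nor with limma on log2(TPM + 1). Other settings, such as DESeq2, did call it. Without ESI+ replicate 2, 0.0704% of all genes were called higher and none of the 9 members that could be fitted was called. The 3 ESI+ values lay above the 3 naive values in 15.2% of all genes and below them in 14.6%, or 29.8% in either direction. SRX1 was the 1 member above and TRR1 the 1 member below.

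The rest of the redox network was read from 62 further genes listed by role, 31 of which were in the tables and tested. None was called higher or lower over all genes (edgeR), where 7.91% of all genes were called in either direction. At an unadjusted p under 0.05 (edgeR), 5 were lower and 0 higher, against 10.6% and 15.1% of all genes. DESeq2 called these 5 lower and 0 higher, against 5.10% and 8.48% of all genes. Limma on log2(TPM + 1) called 1 lower, PDI1, and 0 higher, against 1.12% and 4.84%. The 5 were SOD2, RNR2, GND1, IDP1 and PDI1, and in each the 3 ESI+ values lay below the 3 naive values. The median over the 31 genes was -0.19, with 12 positive and 19 negative values. The ESI+ values lay all below the naive values in 7 of the 31 genes and all above in 3, against 14.6% and 15.2% of all genes, and 21 overlapped.

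**Figure D4:**
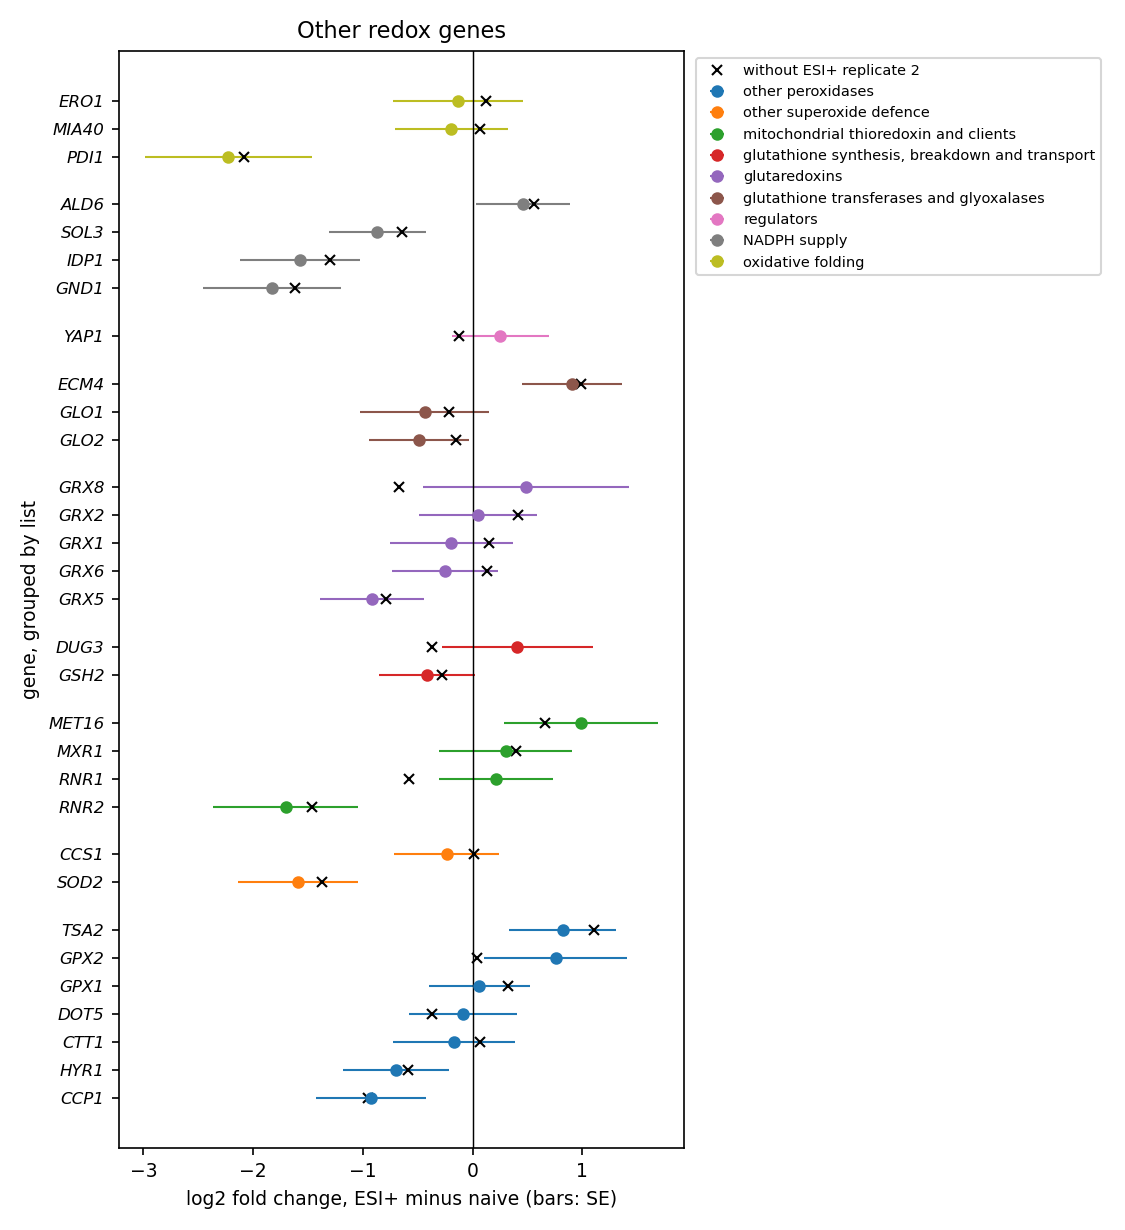
Log2 fold changes, ESI+ minus naive, of the 31 further redox genes grouped by role, with SE bars; crosses give the value without ESI+ replicate 2. PDI1, GND1, RNR2, SOD2 and IDP1 have the lowest values, and TSA2, ECM4 and MET16 the highest.

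None of the 7 other peroxidase genes tested, of 8 listed, was called. TSA2, a paralogue of TSA1 that is known to be induced by peroxide, had 64.6, 77.4 and 68.2 normalised CPM in naive and 125, 72.9 and 178 in ESI+ libraries. ESI+ replicate 2 fell inside the naive range and the others above it. TSA2 had a log2 fold change of 0.82 with an SE of 0.49 (edgeR adjusted p = 0.283), and 1.10 without ESI+ replicate 2. TSA1 exceeded TSA2 16.7 to 30.4 times in TPM in naive libraries and 13.6, 4.80 and 6.30 times in ESI+ libraries, so this ratio did not overlap between groups. The lowest ratio, 4.80, was in ESI+ replicate 2, where TSA1 counts were 11.5 times the background level and TSA2 counts 2.38 times. The pair was chosen after its values were seen, and neither the ratio nor the part of the background in it was tested. CCP1, the mitochondrial cytochrome c peroxidase gene, had a log2 fold change of -0.92 (SE 0.50, edgeR adjusted p = 0.239). SOD2, the mitochondrial manganese superoxide dismutase, had 462, 538 and 712 normalised CPM in naive and 323, 132 and 110 in ESI+ libraries, a log2 fold change of -1.59 (SE 0.55, edgeR adjusted p = 0.0654). SOD1 exceeded SOD2 in TPM 2.23 to 5.14 times in naive and 6.0 to 19.6 times in ESI+ libraries, again without overlap and without a test. The highest ratio, 19.6, was in ESI+ replicate 3, where SOD2 had 44 counts. In ESI+ replicate 2 SOD2 counts were 3.83 times the background level. This pair was chosen with earlier results of these data known. The share of gene pairs without overlap was not taken for this pair or for TSA1 and TSA2. CCS1, the copper chaperone that loads SOD1, had -0.24 (SE 0.48, edgeR adjusted p = 0.781).

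NADPH supply, on which TRR1 and GLR1 depend, had 4 tested genes of 8 listed. Of these, GND1, IDP1 and SOL3 had ESI+ values all below the naive values and ALD6 had them all above, against 14.6% and 15.2% of all genes, and none was called. GND1, the main 6-phosphogluconate dehydrogenase of the pentose phosphate pathway, had 904, 1229 and 1007 normalised CPM in naive and 427, 207 and 250 in ESI+ libraries. GND1 had a log2 fold change of -1.83 with an SE of 0.63 (edgeR adjusted p = 0.0648), and -1.62 without ESI+ replicate 2. IDP1, the mitochondrial NADP-specific isocitrate dehydrogenase, had -1.57 (SE 0.55, edgeR adjusted p = 0.0694). Leaving out ESI+ replicate 2 gave -1.30. For both genes ESI+ replicate 1 was below every naive library too. 

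The list of mitochondrial thioredoxin genes and thioredoxin clients had 4 tested genes of 9. RNR2, the small subunit of ribonucleotide reductase, had 1218, 1255 and 1441 normalised CPM in naive and 662, 261 and 278 in ESI+ libraries, a log2 fold change of -1.70 (SE 0.66, edgeR adjusted p = 0.0988). MET16, the PAPS reductase of sulfate assimilation, had 18.7, 12.2 and 18.1 normalised CPM in naive and 27.5, 44.6 and 25.0 in ESI+ libraries, a log2 fold change of 0.99 (SE 0.70, edgeR adjusted p = 0.376). Of 8 genes of glutathione synthesis, breakdown and transport 2 were tested. GSH2, the second enzyme of glutathione synthesis, had -0.42 (SE 0.44, edgeR adjusted p = 0.572), and DUG3, which acts in glutathione breakdown, had 0.41 (SE 0.69, edgeR adjusted p = 0.740). Of 8 glutathione transferase and glyoxalase genes 3 were tested. ECM4, a glutathione transferase of the omega class, had 80.2, 65.2 and 79.1 in naive and 131, 125 and 168 in ESI+ libraries. All of its ESI+ values were above the naive values, with a log2 fold change of 0.90 (SE 0.46, edgeR adjusted p = 0.205). GLO2, a glyoxalase that regenerates glutathione, had -0.49 (SE 0.46, edgeR adjusted p = 0.516). Of 8 glutaredoxin genes 5 were tested. Of these, GRX5, of mitochondrial iron-sulfur assembly, and GRX6, of the secretory pathway, had the values -0.92 (SE 0.47) and -0.25 (SE 0.48), with edgeR adjusted p of 0.216 and 0.772.

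YAP1, the regulator itself and the 1 of 6 listed regulators in the tables, had 172, 117 and 148 normalised CPM in naive and 130, 250 and 138 in ESI+ libraries. Its log2 fold change of 0.25 (SE 0.44, edgeR adjusted p = 0.750) turned to -0.13 without ESI+ replicate 2. Of 5 oxidative folding genes 3 were tested. PDI1, the protein disulfide isomerase of the endoplasmic reticulum, had 3293, 2392 and 1026 normalised CPM in naive and 865, 386 and 180 in ESI+ libraries. PDI1 had a log2 fold change of -2.23 with an SE of 0.76 (edgeR adjusted p = 0.0648). MIA40, which oxidises proteins entering the mitochondrial intermembrane space, had -0.19 (SE 0.51, edgeR adjusted p = 0.839).

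The nearest profiles were measured by the mean absolute difference of centred log2 CPM over the 6 libraries. For TSA1 the nearest genes of at least 20 CPM were the histone genes HTB1 (0.13) and HHT2 (0.16) and the Ran homologue GSP2 (0.17). For AHP1 they were SSS1 of the protein translocation channel (0.14), the histone gene HHT1 (0.15) and the ribosomal stalk gene RPP0 (0.16). HHT1 and HHT2 encode the same histone, and their reads can be shared. TSA1 and AHP1 were each other's nearest member (0.30), but 58 genes were nearer to TSA1 and 30 nearer to AHP1. TRX1 and SOD1 were also each other's nearest member (0.19), with 10 genes nearer to TRX1 and 22 nearer to SOD1. GSH1 and SRX1 were far from every member, at 0.70 from PRX1 and 1.61 from GSH1.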

How the data were processed

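Polyadenylated RNA from 6 cultures was enriched on oligo-dT beads and read as paired-end Illumina libraries, per the labels' protocols. Per the submitters' processing notes the authors used kallisto 0.43.1 and genome build R64. The deposited estimated counts are fragments assigned to 17906 transcript isoforms, and the deposited TPM values are length-scaled abundances that sum to one fixed total, per the file headers. The sources used here do not give kallisto's options or the origin of the isoforms. All 2850 genes but 1 matched the R64 reference.

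Estimated counts were summed per gene, rounded, filtered (edgeR default, minimum count 10; 2844 genes) and scaled by TMM. ESI+ was compared with naive by edgeR 4.0.16 (R 4.3.3) with robust quasi-likelihood fits; SEs derive from the fold change and F statistic. Other settings used limma 3.58.1 and DESeq2 1.42.0. The members, lists, tests and alternatives were chosen with earlier results of these data known. Of the further redox genes, the text names any past the threshold and the 2 with the smallest adjusted p in each list. SOL3 and ALD6 are named as well, among the NADPH supply genes without overlap. Names follow the reference (ECM4 was listed as GTO2). P-values measure the spread between the deposited replicates. Intervals cover counting error only. The 3 nearest profiles of TSA1 and AHP1 were sought among genes of at least 20 CPM. The replicate numbers were not used to pair the samples in the reported fit.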

Additional observations from a re-analysis of the deposited data

How the results depend on the processing

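The counts over all genes, 178 higher and 47 lower, depended on the processing. No further redox gene was called higher under any setting run. Some of these settings called only 0 or 2 of all genes higher, so they could show little about these genes. Leaving out 1 library gave 2 to 331 higher and 0 to 87 lower genes, with 2 and 0 without ESI+ replicate 2, 331 and 43 without ESI+ replicate 3, 249 and 87 without ESI+ replicate 1, and 87 and 14, 63 and 6, and 71 and 4 without naive replicates 1, 2 and 3. Limma on log2(TPM + 0.1) called 96 and 20, DESeq2 called 145 lower, subtracting the background called 0 and 0, and ESI+ replicate 1 alone, chosen after seeing the data, called 0 and 0. In the reported fit 429 genes were higher and 302 lower at an unadjusted p under 0.05. The replicate number as a block gave 67 higher and 25 lower genes, and SRX1 had a log2 fold change of 3.75 and was not called. Same-numbered libraries had correlations of deviations of -0.064, -0.21 and -0.041, and the other pairs had -0.090 to 0.17. With 3 libraries per group these values cannot decide whether same-numbered libraries shared a batch. Further redox genes called lower numbered 5 with DESeq2, 1 each with limma on log2(TPM + 1), log2(TPM + 0.1) and log2(TPM + 1) without the filter, 1 with effective-length offsets (SOD2), and 0 to 4 with 1 library left out, the 4 (SOD2, RNR2, GND1 and PDI1) without ESI+ replicate 1. The median of the 10 members was -0.56 to -0.021 with 1 library left out, and 0.19 on the log2(TPM + 1) scale, where 7 were positive and the median of all genes was 0.64.

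Of the members, PRX1, TRX1, TRX2, SOD1 and GLR1, negative as reported, had 0.49, 0.19, 0.18, 0.28 and 0.16 on the log2(TPM + 1) scale. With the background subtracted PRX1 had 0.027, TRX2 0.027 and SOD1 0.057. Further redox genes that were not called changed sign as follows, and the cause was not tested. On the log2(TPM + 1) scale, with or without the filter, and the log2(TPM + 0.1) scale, CCS1 had 0.45 and 0.46, GSH2 0.38 and 0.39, GRX6 0.38 and 0.38, GLO2 0.16 and 0.16, and MIA40 0.52 and 0.52. With background subtracted DUG3 had -0.20 and MIA40 0.058. With ESI+ replicate 1 alone DUG3 had -0.34, GRX6 0.32, YAP1 -0.18 and MIA40 0.073. With 1 library left out the ranges were -0.68 to 0.014 for CCS1, -0.37 to 0.72 for DUG3, -0.64 to 0.13 for GRX6, -0.13 to 0.47 for YAP1 and -0.33 to 0.068 for MIA40. SRX1 fell under the filter and could not be fitted without ESI+ replicate 2, with the background subtracted or with a minimum of 50 counts. SRX1 had 0 to 8 counts in 5 of the 6 libraries.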

Other observations

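The isoforms to which counts were assigned differed between libraries. Among the 9 members other than SRX1, the count-weighted mean isoform length was longest in ESI+ replicate 2 for 7 genes and shortest in ESI+ replicate 3 for 6. For TSA1, with 41 listed isoforms of 684 to 776 bases, it was 747 bases in ESI+ replicate 2. The remaining libraries had 713 to 722 bases. For TRX2 it was 450 and 459 bases in ESI+ replicates 2 and 3 and 426 to 436 in the others. The isoform of TRX2 with the largest mean share, of 420 bases, took 73.0% to 88.0% of its counts in the naive libraries and ESI+ replicate 1, 19.6% in ESI+ replicate 2 and 0% in ESI+ replicate 3. The leading GLR1 isoform, of 1625 bases, took 90.6% to 96.2% in those 4 libraries, 60.1% in ESI+ replicate 2 and 0% in ESI+ replicate 3. In ESI+ replicate 3 the leading isoform held under 1% of the counts in 5 of the 9 genes. Listed isoforms differed little in length for some genes, such as 1595 to 1625 bases for GLR1, and more for others, such as 558 to 819 for SOD1. The shares of isoforms are uncertain. Sums of counts per gene do not depend on how counts are split within a gene. Sums of TPM per gene do, through isoform length, and so do the levels and ratios given in TPM. The part of the library differences described above in these shares was not tested.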
